A study of Drosophila melanogaster with 6 samples.

Results

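The baseline transcriptome described here is that of the control larval fat body, taken from 3 of the 6 RNA-seq libraries of a Drosophila melanogaster series on adipokinetic hormone (AKH). The 3 libraries are those labelled control, which carry 1 copy of the R4-Gal4 driver (R4-Gal4/+) and no UAS-AKH insert, in a strain labelled w1118. R4-Gal4 drives transgenes in the fat body, so the controls hold the driver alone and are not undriven wild-type larvae. The tissue is larval fat body, taken late in the 3rd instar, the last stage before pupariation. The AKH-overexpressing libraries of the series were left out throughout. The number of larvae behind a library, their sex and whether the libraries came from separate crosses are not given in the labels, so the spread between libraries may be partly technical. The libraries are called control replicates 1, 2 and 3.

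The larval fat body serves as both liver and adipose tissue of the fly. It stores triglyceride and glycogen, releases lipoproteins and sugar into the haemolymph, and secretes immune and clotting proteins. Late in the last larval stage it makes large amounts of larval serum proteins, hexamers that are taken back up and later used as an amino acid store during metamorphosis. Ecdysone, the moulting steroid, times this switch.

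The replicates held 29888125, 29803513 and 31352718 counts. A gene was called detected in a library from 3 counts, as many as a count of 0 leaves possible. That is 0.0957 to 0.101 CPM (counts relative to library size) in these libraries. Of 15796 genes in the count table, 11047 were detected in all 3 libraries, 1573 in 1 or 2 of them, and 1982 had no count in any. Levels of different genes are compared below as the authors' RPKM, reads scaled by transcript length and library total, and shares are of each library's counts. By mean RPKM, 107 genes lay above 1000, 514 between 100 and 1000, 3063 between 10 and 100 and 4829 between 1 and 10. In a set of gut, lysozyme and ecdysone response genes, replicate 2 was the highest library and replicate 3 mostly the lowest. The count of genes that differ between libraries is given below with all 3 libraries and without replicate 2 or 3.

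The 5 fat body markers were all abundant. Lsp1gamma and Lsp2, subunits of the larval serum hexamers, ranked 2 and 4 among all genes by mean RPKM. Fbp1, the receptor that takes the serum proteins back into the fat body, ranked 7. For apolpp, the precursor of the main haemolymph lipoprotein apolipophorin, RPKM was 1872, 1403 and 1986, which is rank 35 by RPKM and rank 7 by counts. Its transcript is long, and replicate 2 lay below the other libraries. For Lsd-1, a perilipin that coats lipid droplets, RPKM was 711, 773 and 645, which is rank 147.

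Few genes made up much of the RNA. The 20 genes with most counts held 47.0%, 46.0% and 51.7% of counts in replicates 1, 2 and 3 (48.2 ± 3.01, SD, n = 3), and the top 5 held 34.9%, 34.4% and 38.9%. On the mean over libraries, 28 genes held 50% of counts and 1924 held 90%. The library counts differed here, with 33, 40 and 15 genes for 50%, so replicate 3 was the most concentrated. Of the 100 genes highest by RPKM, 94 were the same in all 3 libraries, and at least 59 encoded cytosolic ribosomal proteins. Genes without a matched symbol are in no list and were not counted among these.

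**Figure D1:**
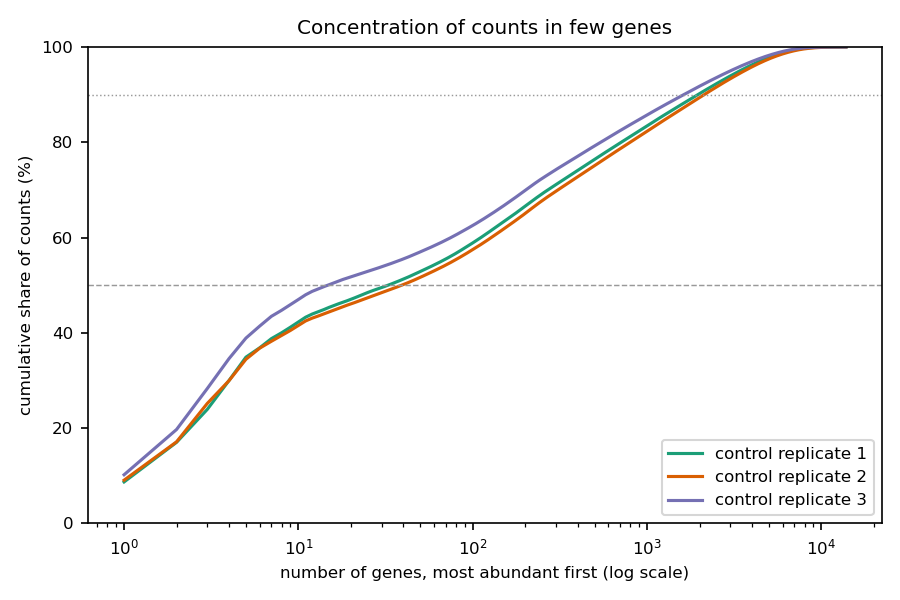
Cumulative share of counts (%) against the number of genes, ordered from most to least abundant (log scale), 1 line per control library, with dashed and dotted lines at 50% and 90%. The line of replicate 3 lies highest, reaching 50% with 15 genes where replicates 1 and 2 need 33 and 40.

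The storage group led the transcriptome. Its 6 genes held 36.0%, 35.4% and 40.0% of counts in the 3 libraries (37.1 ± 2.50, SD, n = 3). Replicate 3 was the highest, and the other libraries differed from each other by less than 1 percentage point. All 6 lay above 1000 RPKM.

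The 4 hexamerin genes sat close together at the top. For Lsp1gamma, RPKM was 33242, 36267 and 37992 in replicates 1, 2 and 3. For Lsp1beta it was 33400, 30910 and 39180, and for Lsp2 it was 29974, 34935 and 37282. The ranges of these 3 genes overlapped, so their order among themselves lay within the spread between libraries. Lsp1alpha, the remaining Lsp1 subunit, was below them in every library, with RPKM of 24784, 18271 and 25680. Its ratio to Lsp1gamma was 0.746, 0.504 and 0.676, so that the subunits stood in an unequal ratio that itself varied, lowest in replicate 2. Lsp1alpha, Lsp1beta and Lsp1gamma are related in sequence, and the labels do not say how reads matching more than 1 gene were counted.

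The remaining storage group genes, Fbp1 and Fbp2, had lower RPKM. Fbp1 had RPKM of 14309, 14013 and 12570. Fbp2, a fat body protein related to alcohol dehydrogenase, had RPKM of 11961, 10362 and 11900. Every value of Fbp1 was above every value of Fbp2, and both were below every value of the 4 hexamerin genes.

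The highest RPKM of all belonged to Obp99b, a member of the odorant binding family of small secreted proteins. Its RPKM was 33923, 40343 and 43617, rank 1 in every library, in ranges that overlapped those of Lsp1gamma, Lsp1beta and Lsp2. Obp99b is a short transcript, so it took 2.28 ± 0.286% of counts (SD, n = 3) and ranked 6 by counts. The family was otherwise low. Of its 51 genes, 25 had no count in any library and 4 had a mean of at least 100 RPKM. The next, Obp99c, had 1112 ± 58.3 RPKM (SD, n = 3), and the ratio of Obp99b to it was 30.7, 34.4 and 41.3.

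Several abundant genes carry no described role in the tables used here. CG34166 ranked 5, with RPKM of 21447, 23000 and 26911, a range that overlapped that of Lsp1alpha. For the gene with identifier FBgn0000556 no symbol was matched, which does not show that its role is unknown. It ranked 13 with RPKM of 5648, 5586 and 5532. These values differed little by RPKM, and by TMM scaling, explained below, the highest library was 1.24-fold above the lowest. Regucalcin, named for calcium binding, ranked 17 with 3351 ± 626 RPKM (SD, n = 3), lowest in replicate 1. Genes without a symbol took 4.59% to 5.13% of counts, so lists built from symbols miss them, and the leading members of a list named here are the highest among genes with a matched symbol.

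**Figure D2:**
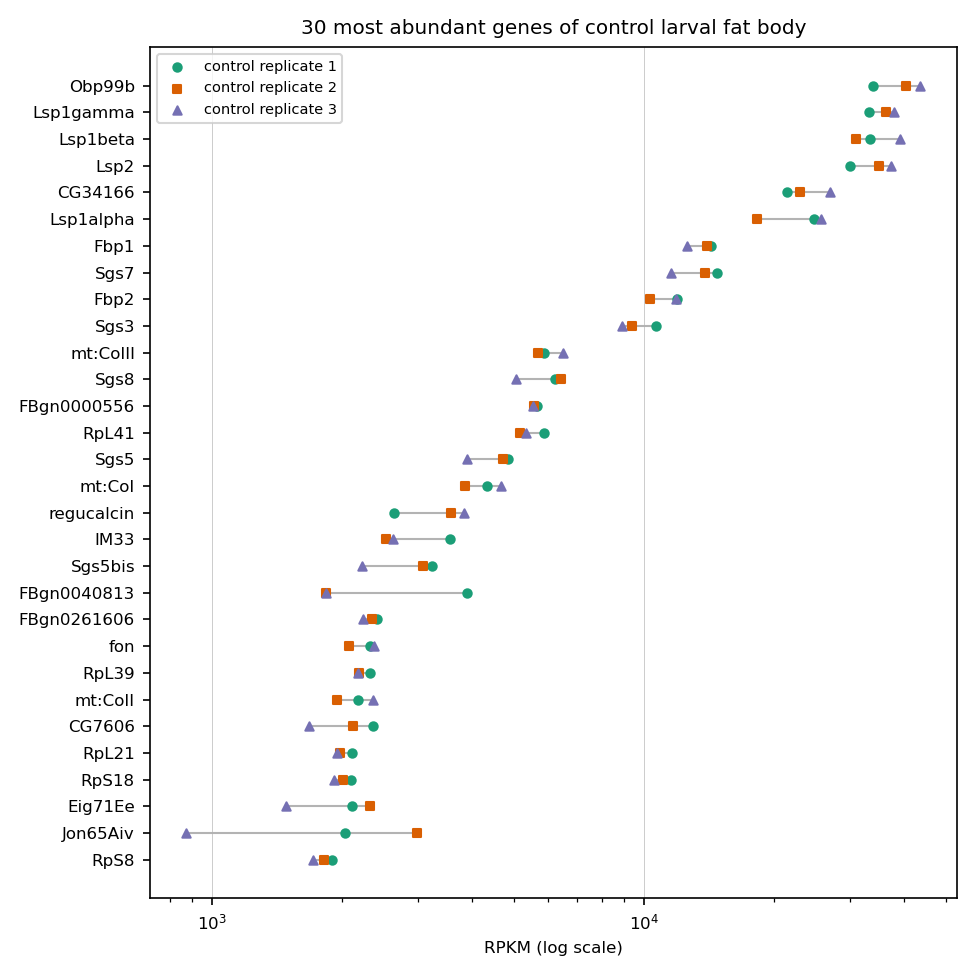
RPKM (log scale) of the 30 genes with the highest mean RPKM, 1 point per control library, with a grey line from the lowest to the highest library. Obp99b and the larval serum proteins are at the top, the Sgs glue genes lie among the first 20, and Jon65Aiv has the widest span, from 874 to 2990.

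Transcripts of glue proteins, which the salivary gland secretes to fix the pupa to its support, were high in all 3 libraries. The 12 listed genes held 3.33%, 3.02% and 2.58% of counts, highest in replicate 1, and 7 of them had over 1000 RPKM. For Sgs7 RPKM was 14807, 13869 and 11570, and for Sgs3 it was 10662, 9384 and 8918, ranks 8 and 10. Sgs7 and Sgs8 are neighbours in the genome, and Sgs3 lies 1 gene away. Sgs5 and Sgs5bis are neighbours too, and these pairs resemble each other, so reads may be shared between them. Differences between libraries were measured on CPM after TMM scaling, which limits the weight of the most abundant genes, where the mean was 10 CPM or more. On that scale 1 of 11 glue genes differed over 2-fold between the highest and the lowest library, against 4.93% of all genes measured. Sgs8 stood at 2158, 2104 and 2072 CPM. Whether these reads came from salivary gland in the dissection or from other cells was not tested.

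Markers of other tissues were lower than glue. The 13 lists of other tissues, glue included, held 3.85 ± 0.560% of counts (SD, n = 3). Muscle contractile genes held 0.0601% and nervous system genes 0.0427% of counts on average. Of 13 listed haemocyte genes, 1 averaged at least 100 RPKM. The list held 0.0745% of counts on average, with sums of 684, 896 and 619 TMM-scaled CPM. Lower members were Hml, a marker of plasmatocytes, at 7.46 ± 0.883 RPKM, and PPO2, the crystal cell prophenoloxidase, at 46.0 ± 1.98 (SD, n = 3). Among cuticle genes, Cpr49Ac alone was high, at 1590, 1735 and 1350 RPKM, while 27 of the 125 listed had no count. In bulk RNA, fewer cells of a type and less RNA per cell cannot be told apart.

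Translation was the second large group. The 88 cytosolic ribosomal protein genes with a matched symbol held 7.82%, 7.39% and 7.11% of counts (7.44 ± 0.359, SD, n = 3). They made up 15.5 ± 0.676% of summed RPKM (SD, n = 3), being short transcripts. Of the 88, 63 had over 1000 RPKM. RpL41, the shortest ribosomal protein, was the highest at 5875, 5181 and 5350 RPKM, and RpL39 followed at 2327, 2190 and 2181. None of the 80 with at least 10 CPM differed over 2-fold between libraries, against 4.93% of all genes measured. Translation factors with a matched symbol added 1.38 ± 0.0719% of counts, a share that leaves out any without one. The highest of those with a matched symbol was eEF2, the elongation factor that moves the ribosome along the message, at 1329 ± 55.0 RPKM (SD, n = 3).

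The secretory route took 1.35 ± 0.108% of counts (SD, n = 3). Its highest members among genes with a matched symbol were Calr, the calcium-binding chaperone calreticulin, at 768 ± 50.5 RPKM, and Hsc70-3, the BiP chaperone of the endoplasmic reticulum, at 708 ± 42.3 (SD, n = 3). Of the 19 cytosolic aminoacyl-tRNA synthetases none varied over 2-fold, close to the 4.93% of all genes, and their median ratio was 1.21 against 1.19 over all genes. Secreted clotting genes held 0.794 ± 0.0432% of counts (SD, n = 3). The clotting protein gene fon (fondue) made up 0.447% of counts and ranked 22, with RPKM of 2327, 2082 and 2373.

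Lipid handling was led by lipoproteins, at 2.05%, 1.57% and 2.15% of counts, of which apolpp alone made 1.80% on average. Replicate 2 was the lowest in this sum, as it was for apolpp. By TMM-scaled CPM, 5 of the 14 listed genes of at least 10 CPM were lowest in replicate 2 and 6 in replicate 3. Beside Lsd-1, the droplet coat Lsd-2 had RPKM of 328, 282 and 319, and the droplet protein Jabba had 154, 171 and 175. Among genes of fatty acid synthesis, Desat1, the stearoyl-CoA desaturase, had RPKM of 726, 742 and 897, and AcCoAS, acetyl-CoA synthetase, had a mean of 481 ± 55.9 (SD, n = 3). Among genes of beta-oxidation, Mcad, a medium-chain acyl-CoA dehydrogenase, had 606, 703 and 748. In counts, the synthesis list held 0.569 ± 0.0449% and the oxidation list 0.532 ± 0.0281% (SD, n = 3), and replicate 3 was the highest for both. The lipase gene bmm, brummer, had 33.0 ± 5.86 RPKM (SD, n = 3), far below the droplet coats.

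Among the genes of energy metabolism named here, mean levels ranged from 76.3 RPKM for Glyp to 6024 RPKM for mt:CoIII. Glycolysis held 0.629 ± 0.0272% of counts, with Gapdh1, glyceraldehyde-3-phosphate dehydrogenase, at 1022 ± 41.6 RPKM (SD, n = 3). The citric acid cycle list held 0.822 ± 0.0561% (SD, n = 3). In it, Pepck1, the entry enzyme of gluconeogenesis, was uneven, with RPKM of 433, 723 and 757. Replicate 1 lay below the other libraries, and by scaled CPM the highest library was 2.07-fold above the lowest. Mitochondrially encoded genes held 1.38 ± 0.125% of counts (SD, n = 3), lowest in replicate 2 at 1.25%. Most were of the cytochrome oxidase subunits mt:CoIII at 6024 ± 412 RPKM and mt:CoI at 4285 ± 408 (SD, n = 3). Of the 37 listed mitochondrial genes, 22 had no count in any library. As the RNA selection is not stated, a count of 0 does not show that these genes were not transcribed. Trehalose synthesis was represented by Tps1, trehalose-6-phosphate synthase, at 183 ± 21.9 RPKM, and glycogen breakdown by Glyp, glycogen phosphorylase, at 76.3 ± 4.22 (SD, n = 3).

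Amino acid metabolism held 0.906 ± 0.0645% of counts (SD, n = 3). Its highest member was Gnmt, glycine N-methyltransferase, which uses up S-adenosylmethionine, with RPKM of 901, 1077 and 1208. Sam-S, which makes S-adenosylmethionine, had 253, 321 and 336. Both were lowest in replicate 1. Gs1, glutamine synthetase, had 415, 605 and 437, highest in replicate 2.

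Immune genes were mostly low, with single exceptions. Of 52 listed antimicrobial and recognition genes, 7 had no count and 2 had at least 100 RPKM. IM33, an immune induced molecule by name, ranked 18 with RPKM of 3561, 2529 and 2624, and GNBP3, a recognition protein for fungal glucans, had 178 ± 6.41 (SD, n = 3). Among the Turandot stress peptides TotA had 1066, 1107 and 1093 RPKM, and TotC, the next, 21.7 ± 2.16 (SD, n = 3). The thioester protein Tep2 had 148 ± 10.4 RPKM (SD, n = 3), and the listed serpins and proteases held 0.222 ± 0.00276% of counts. Iron binding was carried by Tsf1, transferrin, at 377 ± 27.1 RPKM, and by the ferritin chains Fer1HCH at 234 ± 27.2 and Fer2LCH at 204 ± 22.7 (SD, n = 3). The ratio of the ferritin chains, heavy over light, was 1.15, 1.15 and 1.14, with both highest in replicate 2 by RPKM and in replicate 3 by TMM-scaled CPM.

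**Figure D3:**
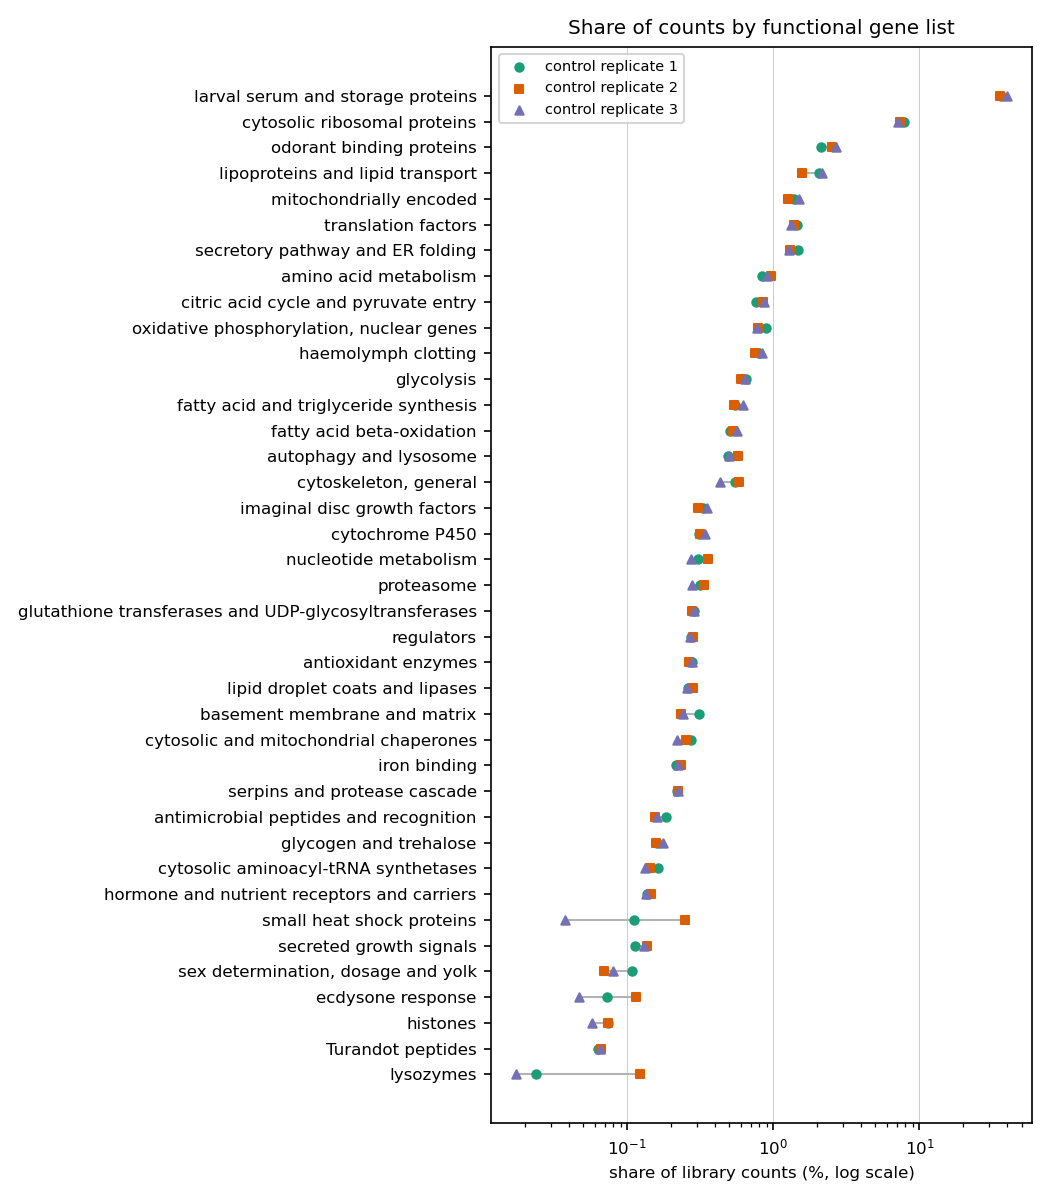
Share of library counts (%, log scale) for each functional list, 1 point per control library with a grey line over their range, ordered by mean share. Storage proteins hold 35.4% to 40.0%, while small heat shock proteins, ecdysone response genes and lysozymes have the widest spans.

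Signals and receptors were low beside the storage genes but well detected. Gbp2, a growth blocking peptide, had 253 ± 24.8 RPKM. Ilp6, the insulin-like peptide of the fat body, had 163 ± 26.3, and CCHa2, a nutrient-dependent peptide hormone, 158 ± 8.68 (SD, n = 3). Of the imaginal disc growth factors, secreted chitinase-like proteins, Idgf6 was the highest at 995 ± 96.5 RPKM, and 5 of 6 had at least 100. AkhR, the receptor for AKH, had RPKM of 56.3, 57.8 and 64.3, rank 980, with ranges that overlapped those of sut1, a sugar carrier, at 60.2, 60.2 and 68.1. Indy, the citrate carrier, was the highest of that list at 111 ± 5.63 RPKM (SD, n = 3).

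Of 50 listed regulators, 48 were detected in all libraries and 1 had at least 100 RPKM. That gene was crc, the fly ATF4, with RPKM of 272, 290 and 271. Stat92E, the JAK/STAT factor, had 74.1 ± 7.47, Mondo, a sugar sensor, 45.0 ± 2.76, and SREBP, the regulator of lipid synthesis, 39.9 ± 1.62 (SD, n = 3). The GATA factor srp, serpent, which is required for fat body identity, had 31.4 ± 2.50 RPKM and foxo 19.2 ± 0.941 (SD, n = 3). The target of Mondo named sug, sugarbabe, had 25.3, 38.6 and 43.3 RPKM, lowest in replicate 1. By scaled CPM 2 of the 36 regulators of at least 10 CPM differed over 2-fold, sug among them, a share near the 4.93% of all genes.

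The spread between libraries was measured on TMM-scaled CPM in the 5432 genes that averaged 10 CPM or more, as the highest library over the lowest. That average takes in all 3 libraries, so a gene high in 1 library can pass the minimum through that library alone. The median ratio was 1.19 and the 90th percentile 1.58. The median coefficient of variation was 9.13%, against 3.20% from counting alone, so the libraries differed beyond counting error. Over 2-fold differences were found in 268 genes, 4.93% of those measured, and these genes held 1.95%, 3.07% and 1.71% of counts. Replicate 2 was the highest in 161 of them (2.96% of genes measured), replicate 3 in 84 (1.55%) and replicate 1 in 23 (0.423%). The order replicate 2, then 1, then 3 was seen in 139 of the 268. Without replicate 2 the number over 2-fold was 119, and without replicate 3 it was 115, so replicates 2 and 3 were the farthest apart. Where the other libraries lay within 2-fold of each other, replicate 3 was over 2-fold from both in 68 genes (41 above, 27 below). For replicate 2 that number was 44 (40 above, 4 below), and for replicate 1 it was 10. The highest library was the same by library size as by TMM for 261 of the 268.

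The direction of smaller differences depended on scaling. By library size 588 of the 5432 genes were highest in replicate 3, against 2521 by TMM. Replicate 3 was also the library with the largest share of counts in storage genes. The median log2 difference of replicate 3 from replicate 1 was -0.22 by library size and 0.02 by TMM. Ribosomal protein genes show this: 75 of 80 were highest in replicate 3 by TMM, and none were by library size.

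By TMM scaling, the 31 proteasome genes of at least 10 CPM had a median ratio of 1.07 against 1.19 over all genes. None exceeded 2-fold, against 4.93% of all genes. By library size their median ratio was 1.22 against 1.26 over all genes, and all 31 were lowest in replicate 3. Single genes of at least 100 CPM with the smallest ratio by TMM included Tm1, a tropomyosin, at 218, 221 and 218 CPM. Others were Rpt1, a proteasome ATPase, at 124, 124 and 126, and tsr, the actin-severing cofilin, at 308, 302 and 304.

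**Figure D4:**
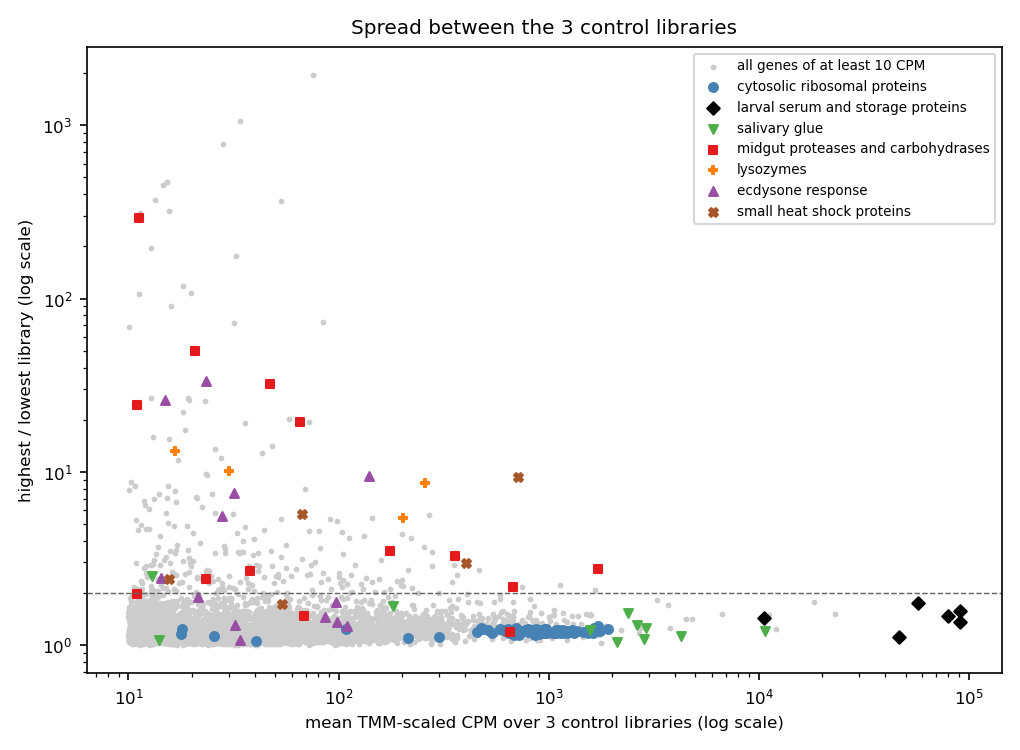
Ratio of the highest to the lowest control library (log scale) against mean TMM-scaled CPM (log scale) for the 5432 genes of at least 10 CPM in grey, with 7 lists in colour and a dashed line at 2-fold. Ribosomal, storage and nearly all glue genes lie below the line, and above it lie all 4 lysozyme genes, 11 of 14 midgut genes, 4 of 5 small heat shock genes and 6 of 13 ecdysone response genes. Of all 5432 genes, 4.93% lie above it. A library under 3 counts was set to 3 counts.

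The 15 genes with the largest ratios were all highest in replicate 2. Muc55B, a mucin by name, had 448, 6903 and 3 counts. CG5084 had 2, 3339 and 2 counts, and Muc96D 15, 5203 and 12. The group held Peritrophin-15a and Peritrophin-15b, neighbouring genes for proteins of the gut lining, and Mal-A1, a midgut maltase. Peritrophin-15a stood at 0.612, 95.9 and 0.545 CPM. For CG10725, with 0 counts in replicate 3 and 1488 in replicate 2, replicate 2 was at least 417-fold higher, taking 3 counts in replicate 3. The ratio of Drsl5, a drosomycin-like peptide gene, was 469 (95% exact interval 160 to 2275, counting error only), with 3 counts in replicate 1 and 1481 in replicate 2.

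Midgut digestive genes followed the same order. Of the 14 with at least 10 CPM, 11 differed over 2-fold, and all 11 were highest in replicate 2 and lowest in replicate 3. Over all genes measured, 4.93% differed over 2-fold, and 2.96% did so with replicate 2 highest. The trypsin gene epsilonTry had 15.8, 45.3 and 0.909 CPM, and the serine protease gene Jon74E 15.1, 123 and 3.82. Both reached the minimum mean of 10 CPM only through replicate 2. Jon65Aiv, the highest of them, had 1768, 2464 and 900. The maltases Mal-A5 and Mal-B2 did not share this, at 585, 685 and 699 CPM and at 60.0, 58.8 and 86.9. The summed list stood at 3844, 5445 and 2457 CPM. Trypsin and Jon genes come in near-identical copies that counting may split.

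The lysozyme genes moved with them. All 4 of at least 10 CPM differed over 2-fold, against 4.93% of all genes measured, with a median ratio of 9.39. All 4 were highest in replicate 2, against 2.96% of all genes over 2-fold and highest there. LysB had 69.6, 603 and 102 CPM and LysS, a midgut digestive lysozyme, 138, 397 and 73.8. LysB, LysC and LysD are near-identical, so their separate values are uncertain. LysB was lowest in replicate 1 and the other 3 in replicate 3. The midgut sum was also highest in replicate 2, and its part in the lysozyme values was not tested.

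Small heat shock genes and ecdysone response genes also differed between libraries. Hsp23 had 545, 1455 and 156 CPM and Hsp27 427, 585 and 196. Over all genes measured, 4.93% exceeded 2-fold, and 2.96% did so with replicate 2 highest. Of the 5 small heat shock genes of at least 10 CPM, 4 exceeded 2-fold, and all 4 were highest in replicate 2. Of 13 ecdysone response genes 6 exceeded 2-fold, and all 6 were highest in replicate 2 and lowest in replicate 3.

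Among these 6, the ecdysone-inducible gene ImpE2 had 140, 251 and 26.7 CPM. The nuclear receptor gene Hr4 had 6.70, 61.9 and 1.85 CPM, and Eip78C, another nuclear receptor gene, had 10.2, 33.2 and 1.27. Hr4 and Eip78C reached the minimum mean of 10 CPM only through replicate 2, so their part in the count of 6 is partly set by that minimum. The ABC transporter gene E23 had 22.4, 52.0 and 9.34 CPM. The subunits of the ecdysone receptor stayed close: EcR had 87.9, 70.1 and 102 CPM and usp 33.6, 35.2 and 33.0. Eip74EF, an early response factor, had 98.7, 128 and 105, and its ratio was 1.29. The stage of each larva pool is not given, and its part in these differences was not tested; the midgut values above moved in the same order.

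**Figure D5:**
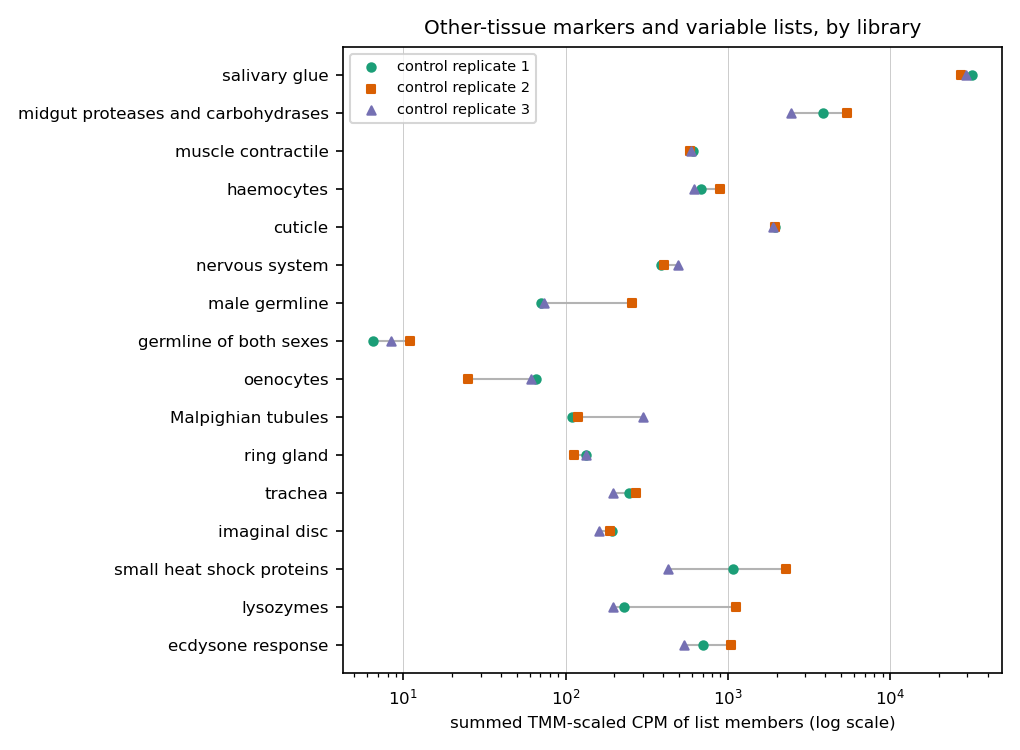
Summed TMM-scaled CPM (log scale) of each other-tissue list and of the small heat shock, lysozyme and ecdysone response lists, 1 point per control library with a grey line over their range. Glue, muscle and cuticle sums are alike in the 3 libraries, midgut, lysozyme, small heat shock and ecdysone sums are highest in replicate 2 and lowest in replicate 3, and the male germline sum is highest in replicate 2.

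Male germline genes were low and uneven. Their sum was 70.5, 259 and 73.4 CPM. Of 32 genes of at least 1 CPM, 27 differed over 2-fold, against 10.7% of all genes at that minimum. All 27 were highest in replicate 2, against 7.11% of all genes. The minimum is a mean over the libraries, so genes low elsewhere can pass it through replicate 2 alone. How many of the 27 did so was not counted. At 10 CPM or more, 0 of 2 male germline genes differed over 2-fold. S-Lap1, a sperm leucyl aminopeptidase, had 2.90, 20.9 and 2.76 CPM. Among the sex-related genes of at least 10 CPM, 1 of 9 differed over 2-fold, against 4.93% of all genes. Their median ratio was 1.14 against 1.19 over all genes. The gene over 2-fold was Yp3, a yolk protein, at 673, 247 and 484 CPM, lowest in replicate 2.

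Other genes were highest in replicate 3. Uro, the urate oxidase of the Malpighian tubules, had 20.8, 22.6 and 165 CPM, and the tubule list summed to 109, 119 and 301. Most of that difference lay in Uro, as the other 9 genes summed to 88.3, 96.7 and 136 CPM. Over all genes measured, 4.93% differed over 2-fold, 1.55% with replicate 3 highest and 2.96% with replicate 2 highest. Of 14 antimicrobial and recognition genes of at least 10 CPM, 5 differed over 2-fold, 3 of them highest in replicate 3 and 2 in replicate 2. The 3 were DptA, DptB and PGRP-SB1, named after their values were seen. DptA, a diptericin, had 2.42, 7.25 and 37.3 CPM, DptB 1.77, 9.30 and 28.1, and PGRP-SB1, a peptidoglycan recognition protein, 4.80, 4.65 and 28.3. All 3 reached the minimum mean of 10 CPM only through replicate 3, so the count of 3 is partly set by that minimum. DptA and DptB resemble each other. Alp7, an alkaline phosphatase by name, had 115, 103 and 586 CPM. The mitochondrial genes mt:ND2, mt:ND1, mt:ND4 and mt:ND5 differed over 2-fold and were lowest in replicate 2 by both scalings. Of these mt:ND2 had 16.6, 6.64 and 19.3 CPM. Of the genes over 2-fold, 23 were highest in replicate 1. Among them Cyp4g1, the oenocyte decarbonylase, had 41.6, 11.7 and 33.3 CPM.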

How the data were processed

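RNA was extracted with Trizol, and libraries were made with a TruSeq RNA kit, per the labels' protocols. The submitters' processing notes name Bowtie2 2.0.6, TopHat2 2.0.9, HTSeq 0.5.4p3, DESeq 1.10.1 and BDGP5 as the genome build. What each tool did, the strand setting, the RNA selection and the treatment of shared reads are not stated in the sources at hand.

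The authors deposited whole-number counts for 15796 genes and RPKM for 15795 of them. The deposited RPKM equal the counts over library total and 1 length per gene, checked in 7896 genes of at least 50 counts (largest relative spread 1.03e-07). Symbols were matched for 15001 of 15681 FlyBase identifiers, and 115 identifiers lay outside FlyBase. No coordinates are given because the reference is of a later build.

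Counts were scaled by TMM in edgeR 4.0.16 (R 4.3.3), with spread estimated under an intercept-only design. The dispersion estimate was tested on simulated data. No test was run, since there is 1 group. Tables were made with pandas 2.3.3. Genes went into the first of 52 lists that held them, other-tissue lists first. Of 1644 names 1600 were found. The libraries, members and lists were chosen with earlier results of these data known, and the lists were revised after the data were seen. The text names the 5 markers, the genes highest by RPKM (30) and by CPM (20), up to 4 genes per functional and 3 per other-tissue list, listed regulators, and the 15 largest and 10 smallest ratios. Named outside this rule, after their values were seen, were bmm, epsilonTry, Jon74E, Mal-B2, Hr4, Eip78C, E23, EcR, usp, DptA, DptB, PGRP-SB1, Alp7, mt:ND2, mt:ND1, mt:ND4 and mt:ND5. Alternatives were other scalings, other expression minimums, summed RPKM in place of counts and leaving out each replicate.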

Additional observations from a re-analysis of the deposited data

How the results depend on the processing

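By summed RPKM in place of counts, the top 20 genes held 42.3%, 48 genes made up 50%, storage proteins held 22.9%, ribosomal proteins 15.5% and glue 6.14%. Outside the 20 most abundant genes, ribosomal proteins held 14.4% and glue 1.72%. Genes over 2-fold numbered 963 at a mean of at least 1 CPM, and 115 to 224 when a replicate was left out, against 268. They numbered 337 by library size and 267 by RLE. The biological coefficient of variation was 0.251, from 0.193 without replicate 2 to 0.290 without replicate 1, and 0.360 with no filter on low counts. The remaining 35 values of the main results under alternatives stayed within the spread between libraries, or within 1.5 times for counts. Of the values for single genes and lists, 387 stayed within that spread and 98 moved beyond it. For shares of counts, leaving out 1 of 3 libraries cannot move the mean beyond that spread. In both sets those values were fixed in advance and show nothing about stability. No paired analysis was possible because the 3 libraries form 1 group with no test. The promoter motif and amino acid results were not run, as no sequences were used here. With 3 libraries, precision is limited by the spread between them rather than by depth for abundant genes.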
